A study of Mus musculus with 6 samples.

Results

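The genes examined here copy DNA and divide the cell, and they were followed in bone marrow-derived macrophages stimulated with LPS. The set holds 44 genes named by symbol: 21 act at the G1/S transition and in DNA replication, 19 act in mitosis, and 4 are the D-type cyclins and their kinase Cdk4. Where several probe sets report a gene, the brightest on average was used. The members come out of 12393 genes with a probe set of their own. Ccnb1 has no such probe set in the annotation used here, so 43 members have values. Of these, 38 rose above the median of 1 array or more and were tested, in a fit over 7499 genes. Cdc6, Tyms, Plk1, Kif11 and Bub1 did not, and their values are given apart.

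RNA was measured on 6 Affymetrix Mouse Genome 430A 2.0 arrays, with a single array per genotype and time point. The groups are macrophages of the IκBβ knockout (KO), titled only "IkB" in the sample labels, at 0, 1 and 5 h of LPS, and of wild type (WT) at the same times. All 6 are labelled C57BL/6J, and the macrophages were grown from non-adherent marrow cells in L929-conditioned medium, a source of the growth factor CSF1, before LPS was added at 1 µg/ml. The KO allele is not described in the sources used here, nor is it stated whether the arrays of a genotype share an animal. In such bulk RNA, fewer dividing cells and less RNA per dividing cell cannot be told apart.

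Nfkbib, which encodes IκBβ, read 30.5, 136 and 56.1 at 0, 1 and 5 h in KO, against 477, 3330 and 5007 in WT. Xist, the RNA of the inactive X chromosome, was 2149 to 5634 on the KO arrays and 52.1 to 80.4 on the WT arrays, while the Y-linked Eif2s3y was 0.896 to 10.7 in KO and 570 to 860 in WT. The KO RNA is thus female and the WT RNA male, and every difference between the genotypes is also one between the sexes. All 10 macrophage markers measured were tested, and Csf1r, the CSF1 receptor, stayed between 12870 and 17298 on the 6 arrays. The trimmed mean of the signals was 500.2 to 500.3 on every array, whereas the array median was 117.0, 98.7 and 65.2 in KO and 113.4, 105.1 and 70.7 in WT at 0, 1 and 5 h. On this scale the median gene tested was lower by 0.57 on the log2 scale at 5 h of LPS than at 0 h, and the members are read against that shift. Signals are MAS5 intensities, and log2 was taken after any signal below a floor of 18.2 (the 25th percentile) had been set to 18.2. Changes were estimated with limma, with genotype and time as additive terms, and a call is an adjusted p under 0.05 (Benjamini-Hochberg, over all tested genes). Their error measures how far the genotypes depart from a shared change, and not the spread between animals.

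A cell that commits to division switches on E2F target genes, which load the MCM helicase on DNA, build the replication fork and supply nucleotides. A later wave of genes, held down in resting cells by the DREAM complex and turned on by B-MYB and FOXM1, builds the spindle and separates the chromosomes. Macrophages divide in CSF1, and LPS is known to halt that division.

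The promoters are shown first because those of both waves carry known words of these regulators. RefSeq promoters (GRCm38.p6) were matched by symbol for 36 of the 44 members, 4 of them with several, and the 250 bases before the start were searched on both strands. The E2F-type words searched were TTCCCGC and its variants in the middle letters, namely TTCGCGC, the form TTGGCGC and the form TTGCCGC. One or more was found in 10 of 19 G1/S members (52.6%) and in 3 of 15 mitotic members (20.0%), against 16.6% of tested genes and 9.01% of all genes in the table. The CHR words TTTGAA or TTCGAA, the element of the later wave, were found in 8 of 15 mitotic members (53.3%) and 3 of 19 G1/S members (15.8%), against 14.5% of tested genes and 19.6% of all. CCAAT was found in 13 of the mitotic members (86.7%) and 11 of the G1/S members (57.9%), against 40.6% and 37.5%. A CHR word and CCAAT stood together in 8 mitotic members (53.3%) and 2 G1/S members (10.5%), against 6.71% and 7.93%. E2F-type and CCAAT words can overlap. Shown are the 3 promoters with an E2F-type word, in capitals, of the G1/S members with the largest floored falls at 5 h: Mcm7 (chr5:138171267-138171516, minus strand, the first of its pair of promoters), Rrm2 (chr12:24708004-24708253, plus strand) and Prim1 (chr10:128014965-128015214, plus strand).
Mcm7: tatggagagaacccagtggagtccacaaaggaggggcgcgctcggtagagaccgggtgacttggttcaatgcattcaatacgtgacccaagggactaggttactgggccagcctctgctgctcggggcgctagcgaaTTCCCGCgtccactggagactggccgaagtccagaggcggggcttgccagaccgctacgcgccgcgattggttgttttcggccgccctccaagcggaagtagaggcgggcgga
Rrm2: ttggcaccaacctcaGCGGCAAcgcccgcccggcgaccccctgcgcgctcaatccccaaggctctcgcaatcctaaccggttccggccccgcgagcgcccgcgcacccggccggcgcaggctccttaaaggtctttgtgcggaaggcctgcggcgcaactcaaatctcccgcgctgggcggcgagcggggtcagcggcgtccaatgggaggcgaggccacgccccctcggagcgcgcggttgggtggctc
Prim1: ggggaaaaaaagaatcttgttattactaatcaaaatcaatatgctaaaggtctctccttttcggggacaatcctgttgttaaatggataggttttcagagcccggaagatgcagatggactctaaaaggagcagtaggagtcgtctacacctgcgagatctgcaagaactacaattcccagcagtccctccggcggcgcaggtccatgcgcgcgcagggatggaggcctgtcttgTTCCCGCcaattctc
The next 3 belong to the mitotic members with a CHR word and a large floored fall, with CHR and CCAAT words in capitals: Cdc20 (chr4:118437344-118437593, minus strand), Bub1b (chr2:118597961-118598210, plus strand) and Cdk1 (chr10:69352913-69353162, minus strand). The Cdk1 promoter also holds 2 E2F-type words, left in lower case. Each of the Mcm7, Rrm2 and Prim1 promoters shown above also holds 1 CCAAT word, which is not marked.
Cdc20: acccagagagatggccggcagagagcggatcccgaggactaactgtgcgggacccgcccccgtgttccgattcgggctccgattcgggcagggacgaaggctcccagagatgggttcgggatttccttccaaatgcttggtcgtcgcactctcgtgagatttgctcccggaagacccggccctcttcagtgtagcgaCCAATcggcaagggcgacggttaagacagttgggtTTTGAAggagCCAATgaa
Bub1b: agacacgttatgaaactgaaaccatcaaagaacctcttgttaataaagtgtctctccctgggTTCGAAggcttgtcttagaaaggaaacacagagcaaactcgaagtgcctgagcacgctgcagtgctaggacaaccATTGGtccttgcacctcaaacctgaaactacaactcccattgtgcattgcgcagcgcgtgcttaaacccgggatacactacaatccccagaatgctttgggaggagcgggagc
Cdk1: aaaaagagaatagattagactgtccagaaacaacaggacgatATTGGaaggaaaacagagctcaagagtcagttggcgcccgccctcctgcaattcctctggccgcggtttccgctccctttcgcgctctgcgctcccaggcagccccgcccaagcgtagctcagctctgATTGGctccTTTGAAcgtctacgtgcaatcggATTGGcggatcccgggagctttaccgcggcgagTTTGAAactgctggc
A word is a description of these letters and not a shown site. Mcm6, which did not pass the test at 5 h, holds 4 E2F-type words, and Cenpa, which fell at 5 h, holds no CHR word in this window. Mcm3, with a log2 change of −2.89 at 5 h, holds no E2F-type word and so is not shown.

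At 1 h of LPS few cell cycle and replication genes had passed the test. Ccnd2, the cyclin D2 gene, and Mki67, which encodes the proliferation antigen Ki-67, were higher, and Ccne1, the cyclin that drives entry into S phase with Cdk2, was lower. Thus 2 of 38 tested members passed limma's test upward and 1 downward, beside 5.52% of all tested genes upward and 5.96% downward, so the count of members called is no larger than the background. The median change at 1 h was −0.34 in KO and −0.19 in WT for G1/S members. For mitotic members it was −0.12 in KO and 0.22 in WT. All tested genes had −0.20 in KO and −0.17 in WT. The member medians are over the 21 G1/S and 18 mitotic members with values, tested or not. Over all 12393 genes with a probe set, the median was −0.10 in KO and −0.08 in WT.

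Ccnd2 read 159, 552 and 7313 at 0, 1 and 5 h in KO and 151, 904 and 7919 in WT. It was 4.55-fold higher at 1 h (log2 2.19 ± 0.22, SE, adjusted p = 0.0129). Mki67 read 166, 647 and 68.3 in KO and 200, 1442 and 166 in WT. The rise was 5.30-fold (log2 2.41 ± 0.29, SE, adjusted p = 0.0186), and both 1 h arrays stood above the other 4. By 5 h the Mki67 signal was below its start in both genotypes. Ccne1 read 56.2, 16.4 and 45.2 at 0, 1 and 5 h in KO and 83.7, 14.8 and 95.5 in WT. Both 1 h signals lay under the floor of 18.2, so its fall of 3.76-fold is a lower bound (adjusted p = 0.0296). These 3 were also the members changed at least 2-fold in both genotypes at 1 h, 2 higher beside 4.01% of tested genes and 1 lower beside 2.6%. None of the 3 calls at 1 h held under every alternative setting: without the WT array at 1 h, no member passed in either direction.

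By 5 h most replication and mitotic genes had fallen in both genotypes, many of them by 4-fold or more, while cyclin D2 had climbed. Of 38 tested members, 24 fell and 2 rose, which is 63.2% and 5.26%, beside 54% and 19.5% of all tested genes. On the deposited scale the share called lower is thus near the background. Of the 38, 16 exceeded an array median at 0 h or 1 h alone and so were let in by arrays on which they are high, and these counts are a description. The members' median change was larger than that of all tested genes, although the member medians include the 5 members not tested. Over all 12393 genes with a probe set, the median was −0.25 in KO and −0.22 in WT. The median change was −1.48 in KO and −1.75 in WT for G1/S members and −1.92 in KO and −1.72 in WT for mitotic members, beside −0.61 in KO and −0.54 in WT for all tested genes. At least 2-fold lower in both genotypes were 23 of the 38 tested members, beside 30.4% of tested genes, and 26 of all 43 with values. At least 2-fold higher in both were 2, beside 10.6%. When each array was centred on its own median, the median gene was higher at 5 h by 0.19. On that scale 22 of the 38 tested members were called lower and 7 higher, beside 27.2% and 39% of tested genes. Under quantile normalization 20 of the 38 were lower and 4 higher, beside 40.8% and 26.3%.

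**Figure D1:**
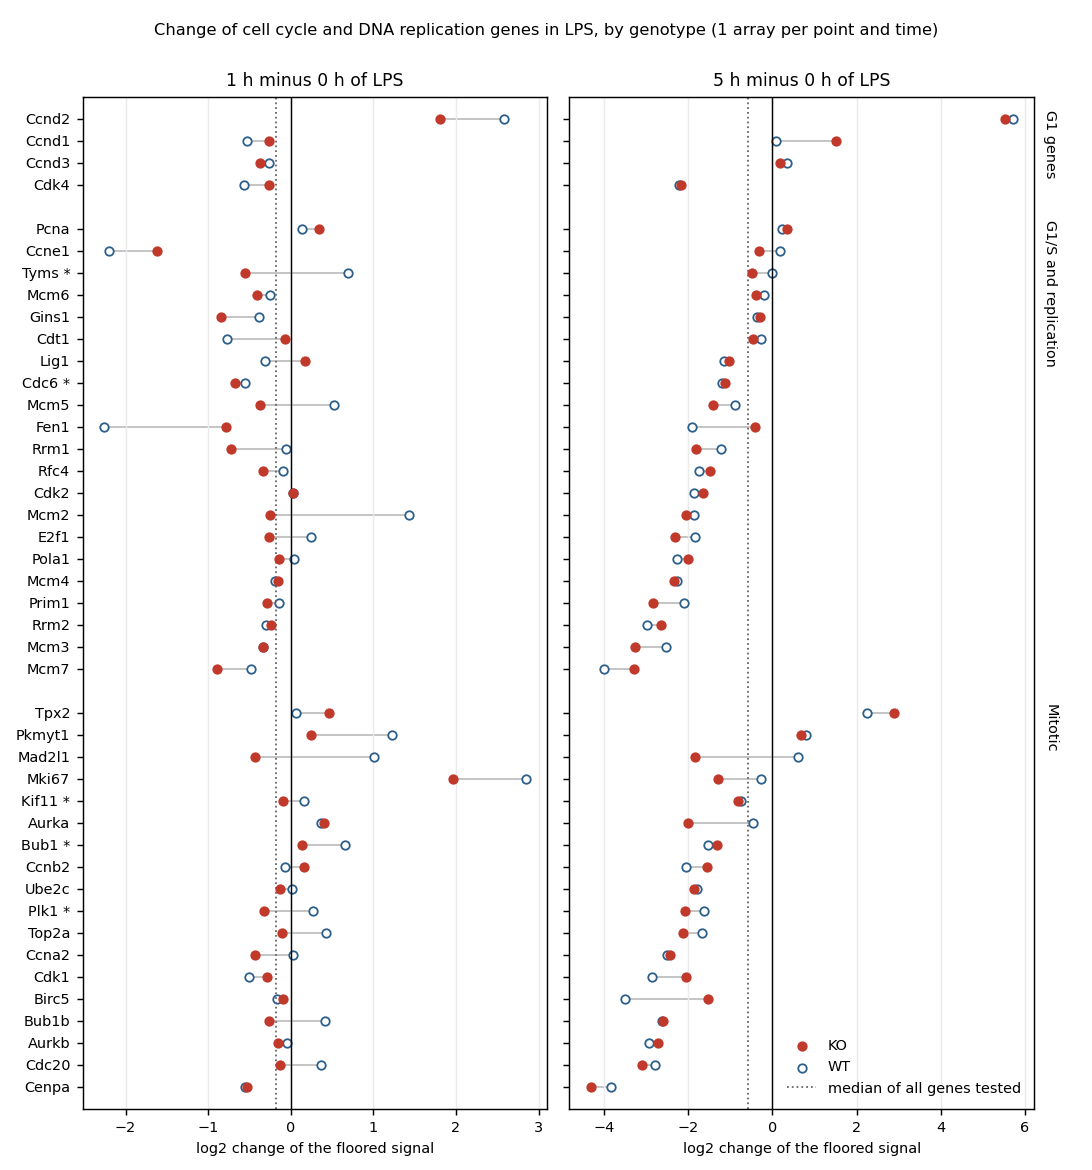
Log2 change of the floored signal at 1 h (left) and 5 h (right) of LPS against 0 h for the 43 members with a probe set, in KO (filled red) and WT (open blue), each point from 2 arrays, with the median of all tested genes dotted and an asterisk on the 5 members not tested. G1 genes are the D-type cyclins and Cdk4. At 1 h most points lie near the dotted line, and at 5 h most G1/S and mitotic members lie left of it, with Ccnd2 and Tpx2 far to the right.

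Among the licensing genes, which place the MCM helicase on origins before S phase, 5 of 8 tested members fell at 5 h, near the 54% of all tested genes. Mcm7, a helicase subunit, read 490, 264 and 50.6 at 0, 1 and 5 h in KO and 527, 378 and 32.9 in WT. Its fall of 12.4-fold (log2 −3.64 ± 0.30, SE, adjusted p = 0.000975) was the largest among the G1/S members with both 5 h signals above the floor, and its other 3 probe sets were lower at 5 h as well. The subunit Mcm3 read 365, 287 and 38.2 in KO and 380, 300 and 66.2 in WT, a fall of 7.41-fold (adjusted p = 0.000909). Mcm4 fell 4.91-fold, Mcm2 3.89-fold and Mcm5 2.22-fold. The subunits of this 1 complex did not move as a block. Mcm6 read 848, 640 and 650 in KO and 739, 622 and 647 in WT, a change of −0.29 ± 0.11 (SE, adjusted p = 0.0751). Mcm6 turned to 0.47 and passed as higher under median centring, and its second probe set was higher in KO and lower in WT. Cdt1, which brings the helicase to origins, changed by −0.37 (adjusted p = 0.238), and Gins1, a subunit of the active helicase, by −0.33 (adjusted p = 0.146). The calls of Mcm2 and Mcm5 were lost under quantile normalization, without the expression filter and without either 5 h array, that of Mcm2 also without the KO array at 0 h, and that of Mcm5 also under median centring.

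At the replication fork 4 of 6 members fell, beside the same 54%. Prim1, the catalytic subunit of primase, read 142, 116 and 19.9 at 0, 1 and 5 h in KO and 135, 122 and 31.6 in WT. It was 5.53-fold lower at 5 h (log2 −2.47 ± 0.22, SE, adjusted p = 0.00114). Pola1, the DNA polymerase alpha subunit that extends the primer, fell 4.39-fold, Rfc4 of the clamp loader 3.07-fold, and the DNA ligase Lig1 2.13-fold, a call lost under median centring and quantile normalization. Pcna, the sliding clamp, did not pass on the deposited scale, with 5913, 7482 and 7497 in KO and 6961, 7643 and 8113 in WT. Its change was 0.28 ± 0.11 (SE, adjusted p = 0.0796), and it passed as higher under median centring alone. Fen1, the flap endonuclease of lagging strands, read 711, 415 and 532 in KO and 1112, 233 and 296 in WT on a probe set of the _x_at type, which may also bind other transcripts, and did not pass (adjusted p = 0.0678). Its other probe set read 381, 225 and 69.3 in KO and 403, 231 and 71.6 in WT, so the pair of Fen1 probe sets differ at 5 h.

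Both tested genes of nucleotide supply fell, beside 54% of tested genes. Rrm2, the small subunit of ribonucleotide reductase whose level limits the enzyme, read 114, 95.8 and 2.19 at 0, 1 and 5 h in KO and 142, 116 and 3.09 in WT. Both 5 h signals lay under the floor, so the fall was at least 6.97-fold (adjusted p = 0.000379). The large subunit Rrm1 fell 2.88-fold, with 100 in KO and 125 in WT left at 5 h. Among the G1/S regulators, E2f1, the transcription factor that opens the replication program, read 377, 313 and 76.3 in KO and 314, 370 and 88.5 in WT. It fell 4.18-fold (log2 −2.06 ± 0.17, SE, adjusted p = 0.000996). Cdk2, the kinase of cyclin E and cyclin A, fell 3.35-fold, with 94.5 in KO and 93.6 in WT at 5 h. Ccne1 at 5 h differed from 0 h by −0.06 (adjusted p = 0.854).

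**Figure D2:**
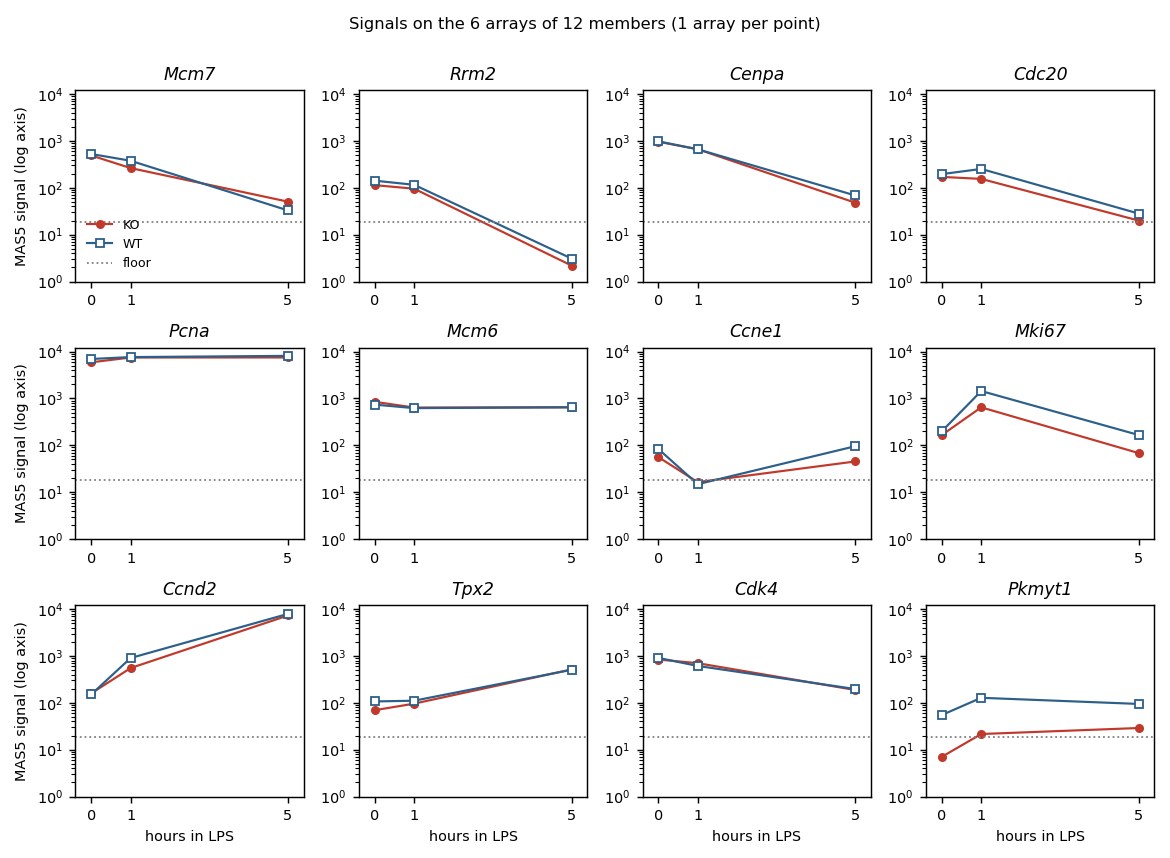
MAS5 signal, on a log axis, of 12 members at 0, 1 and 5 h of LPS in KO (filled red circles) and WT (open blue squares), 1 array per point, with the floor of 18.2 dotted. The top row falls at 5 h, Pcna and Mcm6 did not pass the test at 5 h, Ccne1 dips and Mki67 peaks at 1 h, Ccnd2 climbs to 7313 in KO and 7919 in WT, and the KO line of Pkmyt1 runs below the WT line.

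The D-type cyclins relay growth factor signals to Cdk4 and Cdk6 in G1, and Ccnd2 rose where most other members fell. Ccnd2 reached 7313 in KO and 7919 in WT at 5 h, which is 49.1-fold above 0 h (log2 5.62 ± 0.22, SE, adjusted p = 0.000332). Each of its 7 probe sets was higher at 5 h in both genotypes, by 4.77 or more on the log2 scale. Cdk4, the kinase that these cyclins activate, moved the other way, with 840, 702 and 188 at 0, 1 and 5 h in KO and 910, 613 and 197 in WT. Its fall was 4.55-fold (log2 −2.19 ± 0.13, SE, adjusted p = 0.000508), and its other 2 probe sets were at 161 and 144 in KO and 156 and 134 in WT at 5 h. Ccnd1 read 460, 384 and 1305 in KO and 679, 470 and 723 in WT, so the 5 h signal stood out in KO alone, and the change shared by the genotypes did not pass (0.80, adjusted p = 0.124). Ccnd3 read 657, 507 and 751 in KO and 718, 597 and 915 in WT, a change of 0.27 that did not pass either (adjusted p = 0.0781). Under median centring Ccnd1 and Ccnd3 both passed as higher, and Ccnd3 also did under quantile normalization.

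Of the cyclins and kinases of G2 and mitosis, 3 of 4 tested members fell, beside 54% of tested genes. Ccna2, cyclin A2 of S and G2 phase, read 225, 167 and 42.1 at 0, 1 and 5 h in KO and 273, 277 and 47.9 in WT. It fell 5.51-fold (log2 −2.46 ± 0.17, SE, adjusted p = 0.0007). Cdk1, the kinase that starts mitosis, also fell 5.51-fold, with 284, 233 and 68.6 in KO and 352, 247 and 48.1 in WT. Its partner Ccnb2, cyclin B2, fell 3.51-fold. Pkmyt1, a kinase that holds Cdk1 inactive, lay near or under the floor in KO, with 7.05, 21.6 and 29.0 in KO and 55.0, 128 and 94.7 in WT. Its change of 0.73 did not pass (adjusted p = 0.0744), although it passed as higher under 6 of 12 alternatives.

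In the spindle group Aurkb and Tpx2 changed in opposite directions. Aurkb, the kinase of the chromosomal passenger complex, read 120, 108 and 2.19 at 0, 1 and 5 h in KO and 140, 135 and 4.78 in WT. With both 5 h signals under the floor it fell at least 7.10-fold (adjusted p = 0.000369). Tpx2, which activates Aurora A on spindle microtubules, read 69.7, 96.0 and 516 in KO and 107, 111 and 507 in WT, a rise of 5.93-fold (log2 2.57 ± 0.19, SE, adjusted p = 0.000742). Tpx2 was the only mitotic member that passed as higher at 5 h on the deposited scale. It exceeded an array median on LPS arrays alone, both at 5 h and the WT array at 1 h. The rise thus comes from a gene let in where it is high. Its second probe set read 4.59, 25.4 and 67.8 in KO and 24.2, 3.92 and 68.7 in WT. Aurka, the kinase that Tpx2 activates, read 72.9, 96.5 and 4.25 in KO and 86.8, 112 and 63.7 in WT, so only the KO signal at 5 h was under the floor, and the change did not pass (adjusted p = 0.0681).

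Of the checkpoint and anaphase genes, 3 of 4 tested members fell, beside the same 54%. Cdc20, the activator of the anaphase-promoting complex, read 171, 155 and 20.0 at 0, 1 and 5 h in KO and 196, 253 and 28.2 in WT. It fell 7.67-fold (log2 −2.94 ± 0.16, SE, adjusted p = 0.000443) on a probe set of the _x_at type. Another Cdc20 probe set fell less, by 1.30 in KO and 1.15 in WT on the log2 scale, and the last stayed under the floor. Bub1b, the checkpoint kinase BubR1, read 6.83 in KO and 7.46 in WT at 5 h, both under the floor, a fall of at least 6.11-fold (adjusted p = 0.00106). Bub1b passed the expression filter through the WT array at 1 h alone, on which it is high. Ube2c, the ubiquitin-conjugating enzyme of the anaphase-promoting complex, fell 3.54-fold. Mad2l1, the checkpoint protein that restrains Cdc20, read 275, 205 and 77.3 in KO and 215, 433 and 326 in WT. The genotypes thus went opposite ways at both times, and no change common to them passed (adjusted p = 0.402 at 5 h).

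Among the chromosome proteins Cenpa, the histone H3 variant of centromeres, had the largest fall among members with both 5 h signals above the floor. It read 963, 666 and 48.2 at 0, 1 and 5 h in KO and 982, 665 and 68.8 in WT, a fall of 16.9-fold at 5 h (log2 −4.08 ± 0.17, SE, adjusted p = 0.00035). Birc5, survivin of the passenger complex, fell 5.74-fold (adjusted p = 0.0157), with 46.6 in KO and 20.1 in WT at 5 h. The call of Birc5 was lost under quantile normalization, without the expression filter and without the WT array at 0 h. Top2a, the topoisomerase that untangles sister chromatids, fell 3.72-fold, with 221, 205 and 50.8 in KO and 238, 321 and 75.2 in WT. Mki67 ended 1.71-fold below its 0 h signal, which did not pass (adjusted p = 0.0667).

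The 5 members under the filter lay below the array median on all 6 arrays. Without the filter, in a fit over all 12393 genes, Cdc6, Plk1, Kif11 and Bub1 passed as lower at 5 h, with log2 changes of −1.15, −1.85, −0.79 and −1.42. Plk1, the polo kinase of mitosis, read 77.0, 61.7 and 3.59 at 0, 1 and 5 h in KO and 78.7, 94.9 and 25.4 in WT. Tyms, thymidylate synthase, stayed between 1.10 and 29.4 and did not pass (adjusted p = 0.727). That fit called 25 of 43 members lower and 2 higher, beside 30.3% and 10.5% of all genes.

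The waves were compared next by time. Between 1 h and 5 h, 26 of 38 tested members fell and 4 rose, beside 45.6% and 18.5% of tested genes. The 4 were Ccnd2, Ccnd3, Ccne1 and Tpx2. Of the 38, 16 exceeded an array median at 0 h or 1 h alone, so the count of falls is a description. Aurka and Bub1b, both among the falls, exceeded it on the WT array at 1 h alone, on which they are high. Ccne1 was 3.60-fold higher at 5 h than at 1 h, again a lower bound (adjusted p = 0.00659). It passed the expression filter through the WT array at 5 h alone, so this rise comes from a gene let in where it is high, and the call was lost without the filter (adjusted p = 0.0509). Mki67 fell 9.09-fold in that interval (log2 −3.18 ± 0.29, SE, adjusted p = 0.00172), after its peak. The median change from 1 h was −1.14 in KO and −1.41 in WT for G1/S members, and −1.76 in KO and −2.13 in WT for mitotic members. Against 0 h the mitotic median was above the G1/S median in both genotypes at 1 h, and at 5 h it was the lower one in KO and about level with it in WT. At 5 h 13 of 19 tested G1/S members and 10 of 15 tested mitotic members were called lower, which is 68.4% and 66.7%, beside 54% of tested genes. No test of one wave against the other was made.

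No member passed the test between the genotypes. limma called 0 of 38 higher and 0 lower in KO, beside 0% and 0.0133% of all tested genes, and 6 members had an unadjusted p under 0.05. All 6 were lower in KO, beside 4.77% of tested genes lower and 3.63% higher at that threshold. The one with the smallest p was Pkmyt1, 3.88-fold lower in KO (log2 −1.96 ± 0.23, SE, unadjusted p = 0.00083, adjusted p = 0.337). It was lower in KO at each of the 3 times, at 0 h as a bound because the KO signal was under the floor. The other Pkmyt1 probe set read 4.65 to 18.8, at or near the floor on every array, and so cannot show a difference. Pkmyt1 and Pola1 passed the expression filter through WT arrays alone, which are those where they are high. Mki67 was 1.87-fold lower in KO (unadjusted p = 0.0167, adjusted p = 0.549). The others were Cdc20, Top2a, Pola1 and Ccna2, with KO minus WT of −0.47, −0.44, −0.36 and −0.40.

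The mitotic members lay below WT more often than above it. KO minus WT had a median of −0.24, −0.66 and −0.34 at 0, 1 and 5 h over the 18 mitotic members, against −0.06, −0.08 and −0.11 over the 21 G1/S members and 0.00, −0.02 and −0.06 over all tested genes. At 0 h and at 1 h, 14 of the 15 tested mitotic members and 17 of all 18 with values were lower in KO, the tested ones beside 48.9% and 53.2% of tested genes, and at 5 h 9 of 15 tested and 11 of all 18 were, beside 57.7%. Aurka, Bub1b and Pkmyt1 passed the filter through WT arrays alone. Of the 38 tested members, 6 passed it through WT arrays alone and 1 through KO arrays alone, which favours counts of members lower in KO. Lower in KO at all 3 times were 12 of the 38 tested members, beside 20.3% of tested genes, and 1 member, Mcm6, was higher at all 3, beside 13.9%. All mitotic members share 2 arrays at each time, so their shared direction carries no measure of the spread between animals, and genotype and sex cannot be told apart.

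**Figure D3:**
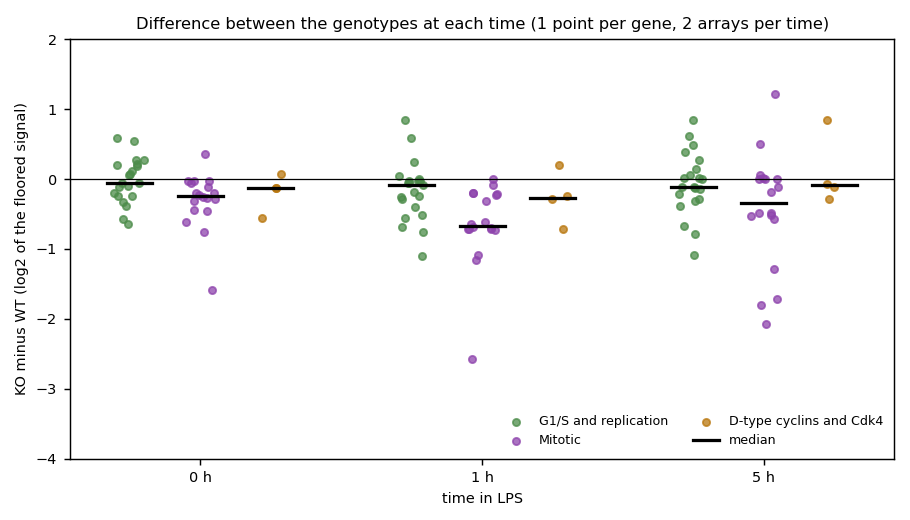
KO minus WT on the log2 scale of the floored signal at 0, 1 and 5 h of LPS, 1 point per member and 2 arrays per time, for G1/S and replication members (green), mitotic members (purple) and the D-type cyclins and Cdk4 (orange), with black bars at the medians. The mitotic bar lies lowest at each time, at −0.24, −0.66 and −0.34, and the lowest point at 0 h and 1 h is Pkmyt1.

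Differences of 2-fold between single arrays were counted next. At 0 h only Pkmyt1 was 2-fold lower in KO, beside 1.13% of tested genes. At 1 h 4 of the 38 tested members were, namely Mcm2, Pkmyt1, Mad2l1 and Mki67, beside 1.87%. At 5 h there were 5, namely Ccne1, Pkmyt1, Aurka, Mad2l1 and Mki67, beside 3.07%. Ccne1, Pkmyt1 and Aurka passed the filter through WT arrays alone, which are those where they are high. The KO signals of Pkmyt1 at 0 h and of Aurka at 5 h lay under the floor, so these differences are bounds. On the chosen probe sets Birc5 was the 1 member 2-fold higher in KO, at 5 h, beside 1.75%. The other 2 Ccnd1 probe sets were also 2-fold higher in KO at 5 h, with 920 and 1039 in KO and 386 and 513 in WT. The chosen Ccnd1 probe set, with 1305 in KO and 723 in WT, was higher by less than 2-fold. An Mcm3 probe set that was not chosen was 2-fold lower in KO at 5 h, with 15.4 in KO, under the floor, and 49.5 in WT. Ccnd2 probe sets not chosen read 152 and 3.94 in KO and 319 and 45.5 in WT at 1 h, also 2-fold lower. A further Ccnd2 probe set was level at 1 h, with 34.2 and 33.8. Probe sets of Mcm3 and Bub1 at 1 h and of Kif11 at 0 h, not chosen and under the array median throughout, were 2-fold lower in KO as well. Mcm2 read 125, 105 and 30.1 at 0, 1 and 5 h in KO and 83.3, 225 and 23.0 in WT, so the WT array at 1 h stands out. A second Mcm2 probe set read 126, 82.7 and 8.71 in KO and 144, 110 and 16.5 in WT, without that peak. Such differences rest on 1 array a group and were not tested.

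Several probe sets could be read for 24 members. Of 15 members with more than 1 probe set above an array median, all were lower at 5 h for 10 members, and all were higher for 3, namely Ccnd1, Ccnd2 and Tpx2. Only Cdt1 and Mcm6 were mixed. Like that of Fen1, the chosen probe sets of Rrm2, Aurkb, Cdc20 and Cdk4 are of the _x_at type. The other Rrm2 and Aurkb probe sets were also lower at 5 h in both genotypes, but lay under the array median throughout.

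The regulators of these waves moved too. Among the CDK inhibitors, Cdkn1a, which encodes p21, read 3296, 12243 and 11476 at 0, 1 and 5 h in KO and 4108, 14513 and 16258 in WT. It was 3.62-fold higher at 1 h (adjusted p = 0.00481) and 3.71-fold higher at 5 h (adjusted p = 0.000557). Cdkn2d (p19), with 464, 312 and 2083 in KO and 499, 325 and 1264 in WT, and Cdkn2b (p15), with 30.2, 72.4 and 119 in KO and 58.0, 90.9 and 106 in WT, rose at 5 h by 1.75 and 1.42 on the log2 scale. Cdkn2c (p18) fell by 3.42, with 695, 537 and 67.9 in KO and 648, 496 and 58.2 in WT. Cdkn1b (p27) fell by 1.24 at 5 h, with 758, 198 and 284 in KO and 497, 272 and 239 in WT. Cdkn1c and Cdkn2a were below the filter, between 15.9 and 112 on the 6 arrays. Thus 3 of 5 tested inhibitors rose and 2 fell, beside 19.5% and 54% of tested genes. Cdkn2b exceeded the array median at 5 h alone, so its rise comes from a gene let in where it is high.

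Of 11 tested pocket protein, E2F, MYB and FOXM1 genes, 3 rose and 5 fell (27.3% and 45.5%) at 5 h, beside 19.5% and 54% of tested genes. The pocket proteins, which bind E2F factors, split: Rbl1 (p107) rose, with a log2 change of 2.83, while Rb1 and Rbl2 (p130) fell, with −2.31 and −2.85. Rbl1 read 271, 224 and 2244 at 0, 1 and 5 h in KO and 303, 267 and 1865 in WT. Rb1 read 1572, 1648 and 345 in KO and 1659, 1712 and 307 in WT, and Rbl2 read 1145, 1169 and 137 in KO and 1136, 1020 and 183 in WT. E2f5, a repressor E2F, rose by 1.37, and E2f6, another repressor, fell by 3.29, which is a lower bound as its WT signal at 5 h was under the floor. Myc, the growth regulator, rose by 4.28 at 1 h (adjusted p = 0.00672), with 51.4, 1469 and 152 at 0, 1 and 5 h in KO and 76.5, 1016 and 107 in WT, and was still 1.03 higher at 5 h (adjusted p = 0.0442). Foxm1, Mybl2 and Lin9 were below the filter.

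**Figure D4:**
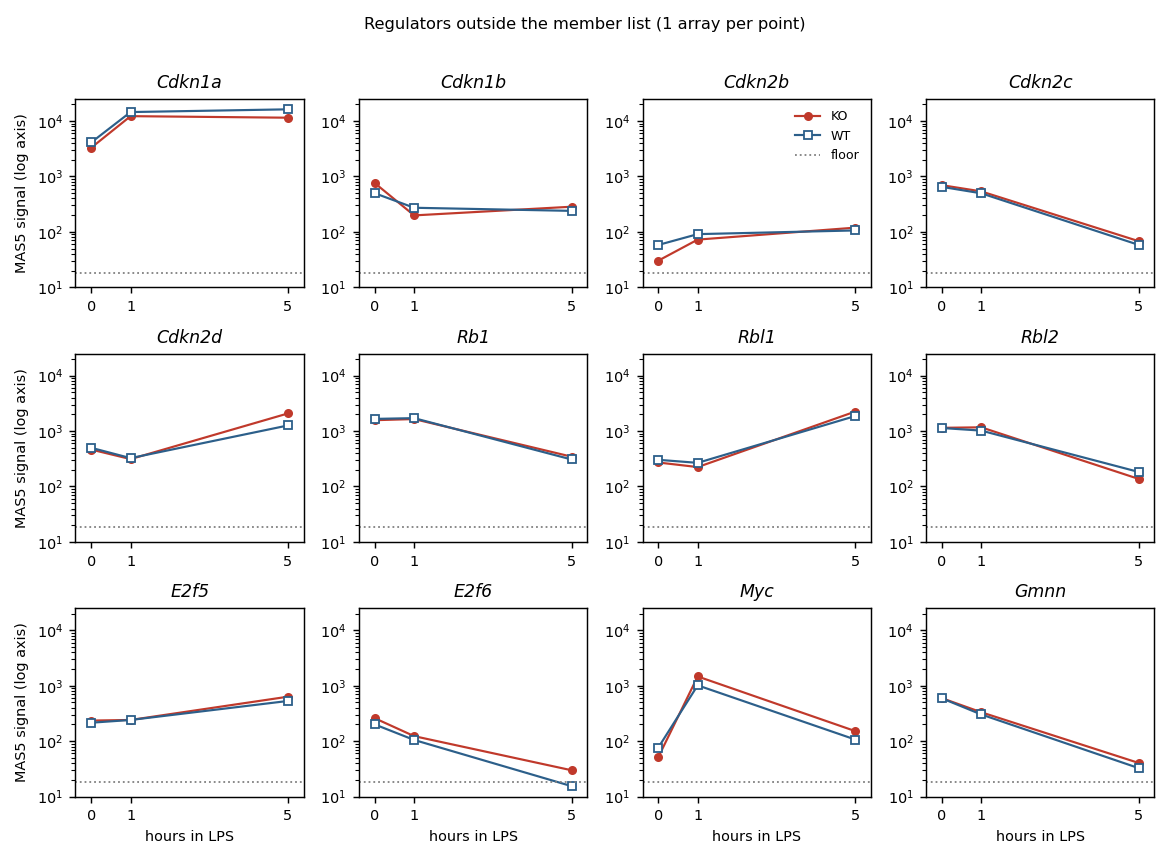
MAS5 signal, on a log axis, of 12 regulators outside the member list at 0, 1 and 5 h of LPS in KO (filled red circles) and WT (open blue squares), 1 array per point, with the floor of 18.2 dotted. Cdkn1a and Myc are up at 1 h, Cdkn2d, Rbl1 and E2f5 at 5 h only, and Cdkn2c, Rb1, Rbl2, E2f6 and Gmnn fall at 5 h in both genotypes.

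Most tested genes of the same pathways outside the member list fell at 5 h as well. Of 25 further replication genes tested, 20 fell (80.0%) and 2 rose, with a median of −1.27 over the 32 with values. Among the falls were those of Gmnn, the inhibitor of Cdt1, with a log2 change of −4.03, of Dut, which keeps uracil out of DNA, with −3.10 as a bound, and of Rpa1, which coats single-stranded DNA, with −2.87. Orc4 of the origin complex and Rfc3 of the clamp loader were the 2 that rose, by 1.14 and 1.04. At 1 h 7 of these 25 were already lower, beside 5.96% of tested genes, Gmnn among them with 332 in KO and 303 in WT, against 596 and 592 at 0 h. Of 25 further mitotic genes tested, 22 fell (88.0%) and 2 rose at 5 h, with a median of −1.66 over the 41 with values. Racgap1 of cytokinesis fell, with −3.42 as a bound, as did the phosphatase Cdc25b with −3.27 and the kinesin Kif22 with −2.93, while Pttg1 (securin) and the kinesin Kif2c rose by 0.84 and 0.74. Cks2, a small partner of Cdk1, peaked like Mki67, with 308, 1036 and 236 at 0, 1 and 5 h in KO and 302, 1189 and 219 in WT, a rise of 1.86 at 1 h (adjusted p = 0.00508). These shares stand beside the same 54% and 19.5% of tested genes at 5 h. They are a description, as the lists were chosen with earlier results of these data known. The filter also lets in genes that are high at 0 h or 1 h alone. Of the 41 mitotic genes with values, 15 in KO and 18 in WT were at the floor at 5 h.

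Some markers of other cells fell at 5 h and some did not. The B cell markers summed to 3909, 2854 and 445 at 0, 1 and 5 h in KO and 3724, 2594 and 458 in WT, and all 3 tested of 6 with values fell, namely Ighm, Cd79b and Cd22, with log2 changes of −3.60, −2.06 and −1.18. Ms4a1 and Pax5, which define B cells, read at most 20.8 on the 6 arrays. None of the 5 T and NK cell markers with values passed the filter, with sums of 32 to 72 in KO and 61 to 90 in WT. Of the neutrophil precursor markers 1 of 2 tested fell, and their sum was 2548, 2066 and 1051 in KO and 1708, 1515 and 773 in WT. Of 4 tested dendritic cell markers 1 rose and 1 fell, namely Ccr7 and H2-Ab1, with log2 changes of 2.15 and −0.56. The 1 fibroblast marker tested, Dcn, rose by 1.68 (adjusted p = 0.0425), and the 1 erythroid marker tested, Epor, did not pass (adjusted p = 0.706). Dcn passed the filter through LPS arrays alone, on which it is high. The dendritic cell markers summed to 15597, 15822 and 13070 in KO and 14894, 15209 and 13482 in WT, and the fibroblast and the erythroid markers to at most 218 and 205 on any array. The macrophage markers summed to 81253, 91554 and 101407 in KO and 88425, 90608 and 107022 in WT. Of the 10, 4 were called higher and 2 lower at 5 h. The part of other cells in the falls was not tested.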

How the data were processed

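Total RNA from macrophages of 2 genotypes at 3 times was hybridised to 6 arrays, 1 per genotype and time. The deposited values are intensities, MAS5 signals that the authors computed per the submitters' processing notes. The sources used here do not give the MAS5 version or scaling target. Of 22690 probe sets, 20380 have 1 gene symbol, 691 have several, 1555 have none given and 64 are controls. Signals under 18.2, the 25th percentile, were set to it, and changes that reach this floor are bounds. The probe set with the highest mean stood for its gene, and 7499 genes exceeded an array's median on at least 1 array.

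Time and genotype were fitted as additive terms with limma 3.58.1 in R 4.3.3 (2 residual degrees of freedom, prior 2.18). The fit was tested on simulated data. Differences between 2 arrays are values without a test, and the number of arrays limits their precision. Alternatives were median centring, quantile normalization, a 10th percentile floor of 4.88, adding 50 without a floor, no filter, a filter on the mean signal, the mean of all probe sets, and leaving out each array. Promoters came from a RefSeq table (GRCm38.p6).

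The members and the other gene lists were chosen with earlier results of these data known. All members may be named, with per-array values for those that lead a role. From the other lists every CDK inhibitor and the 3 largest floored changes each way are named, and markers by list. Figure members, Foxm1, Mybl2 and Lin9 were picked after their values were seen.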

Additional observations from a re-analysis of the deposited data

Results flagged for a closer look

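For 2 members the genotypes moved in opposite directions in LPS. Mcm2 changed by −0.25 in KO and 1.43 in WT at 1 h, a difference of −1.68 on the log2 scale. Mad2l1 changed by −0.43 in KO and 1.01 in WT at 1 h, a difference of −1.44, and by −1.83 in KO and 0.60 in WT at 5 h, a difference of −2.43. Each value rests on 4 arrays, 1 per genotype and time, and the difference was not tested.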

How the results depend on the processing

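No pairing of arrays by animal was possible because the labels carry no replicate numbers and each genotype and time has 1 array. Genotype is a term of the fit, so each change in time is taken within a genotype. Of 24 falls and 2 rises called at 5 h, 20 and 2 were called under every alternative that tested them, and no call in any comparison turned its sign. Of the calls between 1 h and 5 h, 20 of 26 falls and 2 of 4 rises held throughout, while none of the 3 at 1 h did. Counts at 5 h of members higher were 7 after median centring and 4 after quantile normalization, and 8 were higher at 5 h than at 1 h after median centring. At 5 h 26.5% of all calls were higher, against 58.9% after median centring and 39.2% after quantile normalization, and at 1 h 48.1%, against 66.5% and 56.1%. At 1 h the filter's removal left 0 higher and 0 lower, the filter on the mean signal 0 lower, and adding 50 or averaging probe sets 2 lower. The 5 h median of G1/S members (−1.53) was −0.76 with median centring, −0.83 with quantile normalization, −1.01 with 50 added and −1.75 with averaged probe sets. That of mitotic members (−1.84) was −1.14, −1.20, −1.25 and −1.60 in the same order and −2.32 with the lower floor. From 1 h to 5 h the G1/S median (−1.23) was −0.64, −0.71, −0.85 and −1.43, and the mitotic median (−1.96) was −1.50, −1.57 and −1.31 under the first 3 and −2.32 with the lower floor. The 1 h median of G1/S members (−0.22) was −0.04 under both scalings, and KO minus WT (−0.06) was −0.01, −0.03 and −0.12 with median centring, quantile normalization and averaged probe sets. Leaving out 1 array at a time gave −0.09 to −0.06 for KO minus WT of G1/S members, −0.07 to 0.19 for the mitotic median at 1 h, where the sign turned without the WT 0 h array or the WT 1 h array, and −1.54 to −1.19 for the G1/S median from 1 h to 5 h. Members called at 1 h then numbered 0 to 2 higher and 0 to 1 lower. Without the WT 1 h array none was called, without the KO 1 h or the WT 0 h array 1 higher and 0 lower. The cause of these shifts was not tested, beyond the fewer arrays or genes in the fit. At 5 h 7 members in KO and 6 in WT were at the floor, which limits their falls to bounds.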
